A study of Mus musculus with 4 samples.

Results

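Noncoding host genes of small nucleolar RNAs (snoRNAs) were followed in mouse embryonic stem cells treated to degrade RPB3, a core subunit of RNA polymerase II. The 10 genes, Gas5, Snhg1, Snhg3, Snhg4, Snhg5, Snhg6, Snhg8, Snhg12, Snhg18 and Zfas1, were chosen by symbol among 30282 rows of the deposited table, and each symbol had 1 row. They were chosen with earlier results of these data known. All libraries came from V6.5 cells carrying RPB3 fused to mAID, a minimal auxin-inducible degron, and GFP, and all cells received doxycycline (1 µg/ml, 12 h), which induces the degron receptor TIR1. Cells of the IAA group (2 libraries) were afterwards exposed to 500 µM indole-3-acetic acid (IAA), the auxin that triggers degradation, for 12 h by their labels, and the untreated group (2 libraries) had doxycycline alone. The exposure time is not settled, since the protocol text also gives 1 h for the poly(A) libraries. Libraries with IAA but no degron, or with no doxycycline, were not analysed here. The comparison asks how the poly(A) RNA of these genes differs once RPB3 is degraded.

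A snoRNA host gene is transcribed by RNA polymerase II, and most of its snoRNAs lie in introns. After splicing, the intron is trimmed to a snoRNA that guides the chemical modification of ribosomal RNA: C/D box snoRNAs guide ribose methylation and H/ACA box snoRNAs guide pseudouridylation. In the noncoding hosts the spliced exons encode no conserved protein. Many of these RNAs begin with a 5′ terminal oligopyrimidine (TOP) tract, as ribosomal protein mRNAs do, and their short reading frames expose several of them, Gas5 among them, to nonsense-mediated decay (NMD) when they are translated. Poly(A) libraries measure mainly the spliced host RNA and not the mature snoRNA.

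The start regions are shown because most of these RNAs are known as TOP transcripts. Pyrimidine runs near the start and the upstream TATA can be read in the letters. The sequences are RefSeq's on GRCm38.p6, from 50 bases before to 50 after the annotated start, on the gene's strand. Capitals mark TATA where it lies 50 to 10 bases before the start, and any run of at least 6 bases that are each C or T and that begins within 10 bases of the start.
Gas5, chr1:161035116-161035215, plus strand: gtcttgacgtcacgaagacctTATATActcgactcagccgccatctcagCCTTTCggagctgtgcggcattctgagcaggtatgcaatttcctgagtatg
Snhg1, chr19:8723437-8723536, plus strand: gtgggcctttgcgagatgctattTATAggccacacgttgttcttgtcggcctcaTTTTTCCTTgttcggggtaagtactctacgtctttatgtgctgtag
Snhg5, chr9:88522848-88522947, minus strand: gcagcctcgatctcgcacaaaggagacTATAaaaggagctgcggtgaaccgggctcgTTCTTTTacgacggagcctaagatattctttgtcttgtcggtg
Snhg8, chr3:123508287-123508386, minus strand: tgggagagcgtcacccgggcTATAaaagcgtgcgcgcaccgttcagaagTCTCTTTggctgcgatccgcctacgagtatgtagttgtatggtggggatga
Snhg12, chr4:132308628-132308727, plus strand: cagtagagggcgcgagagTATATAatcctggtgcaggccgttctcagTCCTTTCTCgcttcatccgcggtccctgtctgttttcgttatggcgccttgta

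The pyrimidine run was 6 bases long in Gas5, 7 in Snhg5 and Snhg8, and 9 in Snhg1 and Snhg12. Relative to the annotated start the run began at -1 in Gas5 and Snhg8, -3 in Snhg12, 4 in Snhg1 and 7 in Snhg5. An RNA from the annotated start of Snhg1 or Snhg5 would thus not begin with the run. The first TATA stood between 23 bases (Snhg5) and 32 bases (Snhg12) before the start. Windows were taken for 8 of the 10 genes, with 9 starts in all, and the 5 shown are those of them with both features. Any window on chromosome 18, where Snhg4 lies, was left out, and none was taken for Snhg6. The other Gas5 start and the windows of Snhg3 and Zfas1 held neither, and Snhg18 held a run of 10 but no TATA. Among 32851 promoters of the same table, 23.1% held such a run, 8.02% held TATA there, and 1.99% held both. TATA reads the same on both strands, and the run was searched on the gene's strand alone. Of 67 promoters of cytosolic ribosomal protein genes, 43.3% held the run and 7.46% held both. A match describes these letters and does not show which start these cells used.

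Sequenced depth was alike in the 4 libraries. The whole reads behind the table summed to 9194432 and 8779401 in the IAA libraries and to 8724737 and 8794680 in the untreated libraries. No label says whether each library had its own culture, and p-values cover only variation among these 4 libraries, possibly of technical origin. All 8 embryonic stem cell markers examined had mean values of about 2540 or more, while 3 of 5 feeder fibroblast markers had a row. The highest mean was 201.2 among mesoderm and endoderm markers, 132.5 among neural markers and 121.2 among feeder markers. Of the stem cell markers, 2 were higher and 4 lower after IAA in the test below. The feeder markers summed to 117 and 133 in the IAA libraries and to 190 and 242 in the untreated libraries. They were thus lower after IAA, Thy1 and Col1a1 passing the test below. Postn and Dcn had no row among those analysed, and the part of feeder RNA in the results below was not tested. Polr2c, the mRNA of RPB3, had 3242 and 3158 normalised read counts in the IAA libraries and 2726 and 2885 in the untreated libraries. It does not check the degradation, which acts on the protein.

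The 10 hosts together were lower after IAA. Their values, which are read counts divided by the authors' size factors, summed to 2763 and 2663 in the IAA libraries, against 3708 and 3729 in the untreated libraries. That is 0.0295% and 0.0288% of all values in the IAA libraries and 0.0374% and 0.0369% in the untreated libraries. Of the 9 hosts with a mean of at least 10, 8 fell, none rose and Snhg5 did not pass (limma on log2(value + 1) over 14928 genes, adjusted p under 0.05 by the Benjamini-Hochberg method). Over all genes tested, 39.9% were called, 28.9% lower and 11.1% higher. The median log2 fold change of the 9 was -0.60, against -0.11 over all genes tested. Snhg18 passed the filter through its untreated libraries and so had to be lower, and without it 7 of 8 fell, with a median of -0.57. In all 9, Snhg18 included, both IAA libraries lay below both untreated libraries, an arrangement found in 45.6% of all genes tested. The hosts were chosen with earlier results of these data known, so these counts describe them and do not test them as a class. Among the 26 tested noncoding genes with a nested snoRNA, these 9 included, 13 were lower and none higher, with a median of -0.18. Median-of-ratios scaling gave 9 lower and 2 higher of these 26, with a median of -0.08. Snhg11, lower at the deposited scaling (log2 fold change -0.16), is not among the 26, since its annotation class put it with the protein-coding genes. Without any 1 of the 4 libraries, 0 of the hosts stayed under an adjusted p of 0.05 in limma, while 7 or 8 of the 9 were lower at an unadjusted p under 0.05, as were 22.3% to 24.7% of all genes tested. Such fits leave 1 library in a group and cannot check the calls. In bulk samples, fewer cells of a type and less RNA per cell cannot be told apart.

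**Figure D1:**
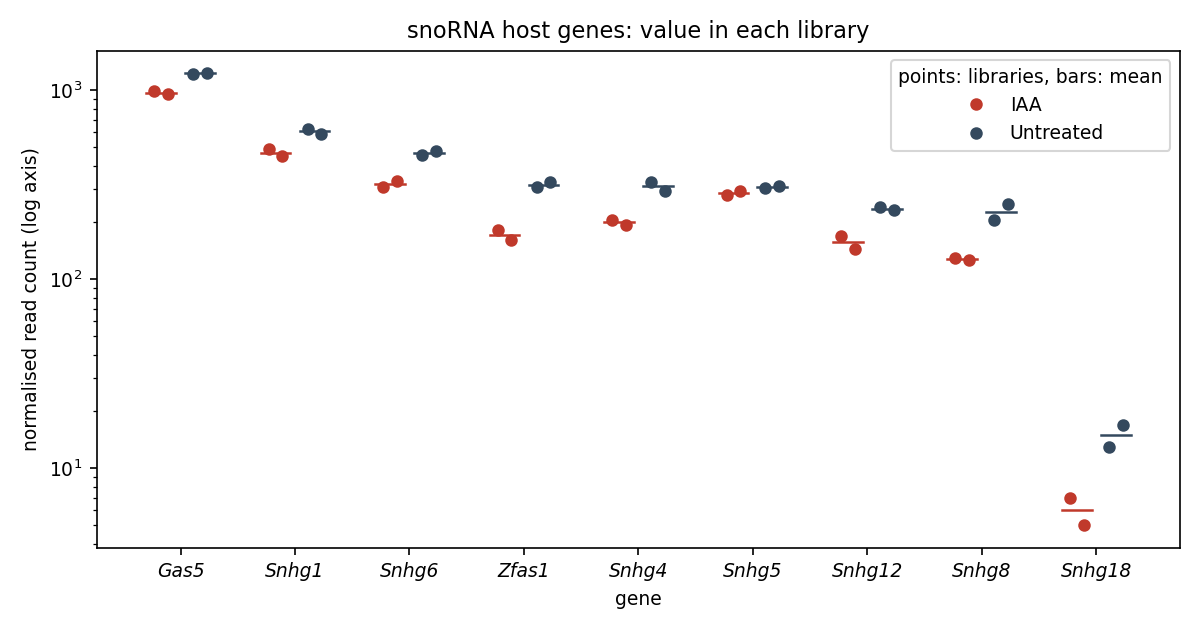
Normalised read count (log axis) of the 9 tested host genes, with IAA libraries to the left of untreated libraries; points are libraries and bars are means of 2. The pairs lie closest in Snhg5, and Gas5 has the highest values, with means of 972 and 1229.

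Zfas1 and Snhg8 had the steepest falls among the well-read hosts. Zfas1, named for its place antisense to the start of the zinc finger gene Znfx1 (ENSMUSG00000074578, chr2:167062934-167065862, plus strand, GRCm38), had 182 and 161 normalised read counts in the IAA libraries and 307 and 326 in the untreated libraries. Both IAA libraries stood far below both untreated libraries. The mean was 171.5 ± 14.8 after IAA and 316.5 ± 13.4 untreated (SD, n = 2 each), a log2 fold change of -0.88 with a standard error of 0.10 (adjusted p = 1.24e-06 in limma). Snhg8, the host of the H/ACA box snoRNA Snora24 (ENSMUSG00000104960, chr3:123507552-123508404, minus strand), had 129 and 126 in the IAA libraries and 205 and 251 in the untreated libraries. Its untreated libraries lay further apart than its IAA libraries, without reaching them. Its mean was 127.5 ± 2.12 after IAA and 228 ± 32.5 untreated (SD, n = 2 each), a log2 fold change of -0.83 with a standard error of 0.12 (adjusted p = 2.18e-05 in limma). After IAA these RNAs were at 54.2% (Zfas1) and 55.9% (Snhg8) of their untreated mean.

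Snhg4, Snhg12 and Snhg6 fell by a middle amount. Snhg4, the host of Snora74a (ENSMUSG00000117869, chr18:35553371-35558316, plus strand), had 206 and 195 in the IAA libraries and 328 and 295 in the untreated libraries. Its log2 fold change was -0.63 (SE 0.10; limma adjusted p = 3.99e-05). Snhg12 carries both classes of snoRNA, the H/ACA box Snora16a, Snora44 and Snora61 and the C/D box Snord99 (ENSMUSG00000086290, chr4:132308623-132311024, plus strand). It had 170 and 144 in the IAA libraries and 242 and 232 in the untreated libraries, a log2 fold change of -0.60 with a standard error of 0.11 (adjusted p = 0.000321 in limma). Snhg6, the host of Snord87 (ENSMUSG00000098234, chr1:9941959-9944118, minus strand), had 308 and 333 in the IAA libraries and 457 and 476 in the untreated libraries. Its log2 fold change was -0.54 (SE 0.08; limma adjusted p = 2.42e-05). In each of the 3 the gap between groups was wider than the gap within either group.

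Gas5 and Snhg1, the hosts with the most nested snoRNAs, fell least among the hosts that passed. Gas5 (growth arrest specific 5; ENSMUSG00000053332, chr1:161034422-161038539, plus strand), whose 9 annotated snoRNA loci include the C/D box Snord47, Snord78 and Snord80, had 988 and 956 in the IAA libraries and 1227 and 1231 in the untreated libraries. The libraries of each group nearly coincided, and IAA left 79.1% of the untreated mean. The log2 fold change was -0.34 (SE 0.05; limma adjusted p = 4.58e-05). Snhg1, with 8 loci including Snord22 (ENSMUSG00000108414, chr19:8723475-8726443, plus strand), had 491 and 447 in the IAA libraries and 624 and 590 in the untreated libraries. Its log2 fold change was -0.37 (SE 0.07; limma adjusted p = 0.000414), near that of Gas5. Zfas1 has 3 loci, Snhg4 and Snhg5 have 2 each, and Snhg6, Snhg8 and Snhg18 have 1 each.

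Snhg5 was the host whose difference could not be told from 0. Snhg5, the host of the C/D box snoRNAs Snord50a and Snord50b (ENSMUSG00000097195, chr9:88521050-88522929, minus strand), had 280 and 295 in the IAA libraries and 305 and 311 in the untreated libraries. The groups stood close without overlapping. The log2 fold change was -0.10, with a 95% interval from -0.28 to 0.09 (limma adjusted p = 0.399), and it was -0.00 under median-of-ratios scaling. Its start region, shown above, holds both TATA and a pyrimidine run, which begins 7 bases after the annotated start.

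Snhg18 and Snhg3 were read too little for a firm value. Snhg18, the host of Snord123 (ENSMUSG00000096956, chr15:32240565-32244662, minus strand), had 7 and 5 in the IAA libraries and 13 and 17 in the untreated libraries. It passed the filter on low values through its untreated libraries. Its log2 fold change was -1.20 with a wide 95% interval from -2.13 to -0.27 (limma adjusted p = 0.0383), and under median-of-ratios scaling it did not pass (limma adjusted p = 0.0653). In the authors' deposited table Snhg18 had a log2 fold change of -1.25 (SE 1.08; Wald test, unadjusted p = 0.247) and no adjusted p. Snhg3 (ENSMUSG00000085241, chr4:132348014-132353686, minus strand), the host of the H/ACA box snoRNAs Snora73a and Snora73b, had 2 and 1 in the IAA libraries and was at 0 in both untreated libraries. No group exceeded 3 reads in a library, so no fold change is given. Of its 986 annotated exon bases, 705 are shared with Gm17300 on the opposite strand and 135 with Rcc1, the gene of a chromatin-bound exchange factor, on the same strand. Reads there could be left out or given to another gene, depending on counting settings not given in the sources used here, and the low value does not stand for Snhg3 as a whole.

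**Figure D2:**
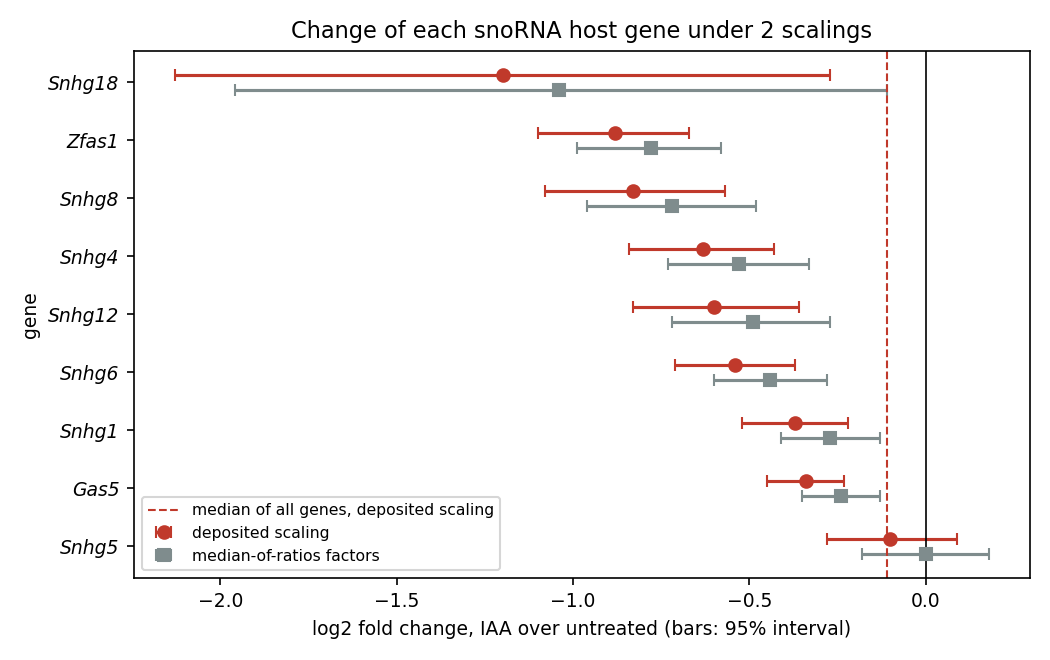
Log2 fold change of IAA over untreated with its 95% interval for each tested host, at the deposited scaling (circles) and under median-of-ratios scaling (squares); the dashed line is the median of all genes at the deposited scaling, -0.11. Snhg5 lies on that line, and the intervals of the others lie below 0 under both scalings, that of Snhg18 being the widest.

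The scaling moved the hosts by a like amount, save Snhg18, which moved further. Its log2 fold change was -1.20 at the deposited scaling and -1.04 under median-of-ratios scaling. Whether the deposited size factors rest on mouse reads or on the Drosophila spike-in of the series is not given in the sources used here. Over their geometric mean they were 1.07 and 1.03 (IAA) and 0.958 and 0.947 (untreated). Median-of-ratios factors of the recovered reads differed, at 1.04 and 0.994 (IAA) and 0.988 and 0.992 (untreated), and the source of the difference was not tested. Median-of-ratios scaling, computed from the recovered reads, put the median of all genes at -0.01 in place of -0.11, and 7 hosts were then lower and none higher, where 40.8% of all genes were called, 20.5% lower and 20.4% higher. Relative to the median of all genes at the deposited scaling, Zfas1 lay at -0.77, Snhg8 at -0.72, Snhg1 at -0.27, Gas5 at -0.23 and Snhg5 at 0.01. Of the 8 hosts with an adjusted p in the authors' deposited table, 5 were under 0.05 (9.57% of its genes with an adjusted p were so and lower). These were Zfas1 (adjusted p = 0.00252), Snhg8 (0.0229), Snhg6 (0.0287), Gas5 (0.0317) and Snhg4 (0.0388). In the authors' deposited table Snhg1 (adjusted p = 0.107) and Snhg12 (0.11) were not. The authors' own label of change in that table marked 0 of the hosts as changed.

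Ratios between hosts in the same library do not depend on any scaling. Zfas1 stood at 18.4% and 16.8% of Gas5 in the IAA libraries and at 25% and 26.5% in the untreated libraries. Snhg8 stood at 13.1% and 13.2% of Gas5 in the IAA libraries and at 16.7% and 20.4% in the untreated libraries. Both were thus lower against Gas5 after IAA, as were Snhg4, Snhg6 and Snhg12, with no overlap between groups. That order was found for 13.9% of all other genes tested. Snhg5 went the other way, as did 59.9% of those genes, at 28.3% and 30.9% of Gas5 in the IAA libraries and 24.9% and 25.3% in the untreated libraries. The ratio of Snhg1 to Gas5 overlapped between groups, at 49.7% and 46.8% in the IAA libraries and 50.9% and 47.9% in the untreated libraries. Snhg18 was lower against Gas5 after IAA, but it passed the filter on low values through its untreated libraries, so its order carries no weight. With 2 libraries in each group, an exact two-sided permutation test of a ratio cannot give a p below 0.333, so these orders are descriptions.

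**Figure D3:**
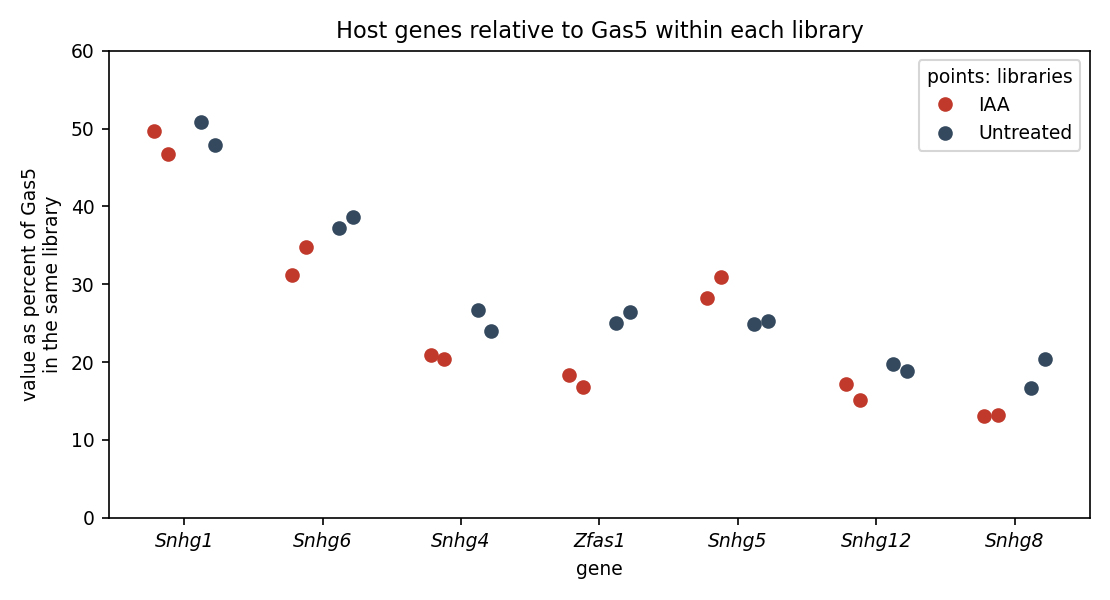
Value of each host as a percentage of Gas5 in the same library, with IAA libraries to the left of untreated libraries; each point is a library, and Snhg18, below 2% of Gas5, is not drawn. Zfas1, Snhg8, Snhg4, Snhg6 and Snhg12 are lower in IAA libraries, Snhg5 is higher and Snhg1 overlaps.

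Per kilobase of annotated exon, Snhg6 had the highest value, on an exon length that is not alike across hosts. The exon length is the union over all GENCODE M21 transcripts, which covers 100% of the gene in Snhg1, Snhg8, Snhg12 and Zfas1, 94.3% in Snhg4, 92% in Snhg5 and 91.3% in Gas5, but 53.1% in Snhg6 and 36.3% in Snhg18. Levels per length of spliced RNA are understated most where introns are counted as exon, so the place of Snhg6 above Gas5 holds for this length alone. Snhg6 had 280 normalised reads per kilobase after IAA and 407 untreated, and Gas5 had 259 after IAA and 327 untreated. Below them in the untreated libraries came Snhg8 (267), Snhg1 (204), Snhg5 (178), Zfas1 (108), Snhg12 (98.7), Snhg4 (66.8) and Snhg18 (10.1). The order changed after IAA to Snhg5 (166), Snhg1 (158), Snhg8 (149), Snhg12 (65.4), Zfas1 (58.6), Snhg4 (43) and Snhg18 (4.04). After IAA, the libraries of Snhg5 (162 and 171) and Snhg1 (165 and 151) overlapped, as did those of Snhg1 and Snhg8 (151 and 148) and those of Snhg12 (70.8 and 60) and Zfas1 (62.1 and 55). No neighbours overlapped in the untreated libraries.

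The rows of the snoRNAs themselves held few reads. GENCODE M21 places 33 snoRNA loci inside the 10 hosts on the same strand, in 35 annotations, of which 3 had a row in the table. These are counted by GENCODE's biotype, so Mir5117 in Gas5 and Mir1949 in Snhg4, which it classes as snoRNA, are included. Of the 35 annotations, 32 overlap an annotated exon of the host, and reads there cannot be told apart from host reads. Snord87 in Snhg6 and Snord123 in Snhg18 had at most 4 in any library. Gm23201, inside Zfas1 (chr2:167064998-167065086, plus strand), had 18 and 15 in the IAA libraries and 23 and 25 in the untreated libraries. Its log2 fold change was -0.52, with a 95% interval from -1.18 to 0.14, and did not pass (limma adjusted p = 0.205). Among all snoRNA genes, 290 had a row and took 0.0102% of all values, and of the 29 with a mean of at least 10, 2 were lower and none higher, with a median of 0.03.

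The snoRNA annotations nested in Zfas1 are shown because Zfas1 fell steeply and holds the one nested snoRNA with enough reads to test. The sequences are those of GENCODE M21, with T for U. Capitals mark TGATGA, the core of the C box, and the last CTGA, the D box, both searched on the transcript strand as marks of the C/D class.
Gm25878: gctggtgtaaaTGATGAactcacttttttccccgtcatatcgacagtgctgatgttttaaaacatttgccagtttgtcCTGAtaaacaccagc
Gm23201: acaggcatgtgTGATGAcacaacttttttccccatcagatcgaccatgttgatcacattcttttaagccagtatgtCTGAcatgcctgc
Snord12: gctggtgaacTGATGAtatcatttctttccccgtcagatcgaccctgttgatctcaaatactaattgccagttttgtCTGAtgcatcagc
These are 93, 89 and 90 bases long in the order shown, and in each the TGATGA begins at base 11 or 12.

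Genes that begin beside the hosts moved in both directions. Slc3a2, the gene of the CD98 heavy chain, begins 106 bases from Snhg1 on the opposite strand and fell with it, with 3916 and 3915 normalised read counts in the IAA libraries and 4797 and 4572 in the untreated libraries (log2 fold change -0.26, SE 0.04; limma adjusted p = 1.81e-05). Zbtb37, 80 bases from a start of Gas5, fell as well (-0.31, SE 0.08; limma adjusted p = 0.0044), but was not called in the authors' deposited table (adjusted p = 0.309). Znfx1, whose start lies 80 bases from that of Zfas1 on the opposite strand, rose while Zfas1 fell. It had 405 and 391 in the IAA libraries and 338 in each untreated library (0.23, SE 0.08; limma adjusted p = 0.025), a rise not called in the authors' deposited table (adjusted p = 0.477). Zfas1 and Znfx1 share 82 exon bases on opposite strands. Mcmdc2, a meiotic gene that shares 127 of the 1146 exon bases of Snhg6 on the opposite strand, had 41 in each IAA library and 75 and 93 in the untreated libraries (-1.01, SE 0.19; limma adjusted p = 0.000354). In the authors' deposited table Mcmdc2 was not called (adjusted p = 0.119). Without a stated strand setting, reads from such shared bases cannot be told apart. Rcc1 had a log2 fold change of -0.01, with a 95% interval from -0.12 to 0.10. Sema5a, 148 bases from Snhg18, had 5 and 2 in the IAA libraries and 10 and 22 in the untreated libraries, and Gm28285, which shares 246 exon bases with Snhg4, had 3 and 5 in the IAA libraries and 10 and 7 in the untreated libraries. Both were below the filter.

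Other genes listed as noncoding hosts did not move together. Of 12 listed, 8 had a row and 7 were tested, of which GENCODE M21 places no snoRNA inside Meg3, Snhg10 and Snhg20 on the same strand: at the deposited scaling 3 were lower and none higher, median-of-ratios scaling gave 2 lower and 1 higher, and the median log2 fold change was 0.07 at the deposited scaling. Epb41l4aos had 136 and 153 in the IAA libraries and 291 and 264 in the untreated libraries (-0.94, SE 0.11; limma adjusted p = 1.44e-06). Meg3, an imprinted noncoding RNA of the Dlk1 domain, fell (-0.40), and Snhg11 fell slightly (-0.16) but did not pass under median-of-ratios scaling. Snhg15 had 255 and 226 in the IAA libraries and 188 and 220 in the untreated libraries, a log2 fold change of 0.24 that did not pass at the deposited scaling (limma adjusted p = 0.0915) and passed under median-of-ratios scaling (0.00654). Snhg15, like Snhg16 (0.09) and Snhg20 (0.07), was named after its values were seen.

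Ribosomal protein genes, many of which also carry intronic snoRNAs, were lower with or without one. Of the 30 with a nested snoRNA on the same strand 30 were lower, with a median log2 fold change of -0.35, and of the 49 without one 47 were lower and none higher, with a median of -0.36. The central 90% ran from -0.46 to -0.27 with a snoRNA and from -0.45 to -0.23 without, and the full ranges were -0.52 to -0.17 and -0.48 to 0.57. The full range of the 9 noncoding hosts was -1.20 to -0.10. Gas5 and Snhg1 lay inside all these ranges of the ribosomal protein genes. Zfas1, Snhg8, Snhg4, Snhg12, Snhg6 and Snhg18 lay below the full ranges. Snhg18, the lower end of the host range, passed the filter on low values through its untreated libraries, so its place carries no weight. Snhg5 lay above both central ranges but inside the full range of the genes without a snoRNA. That range reached above Snhg5 only through the 2 genes not called, Rpl24 and Rps10 (0.15). Rpl24, its upper end, had only 10 and 17 in the IAA libraries and 9 and 8 in the untreated libraries. Other protein-coding genes with a nested snoRNA were mixed, with 73 lower and 33 higher of 185 tested and a median of -0.08 (56 lower and 59 higher under median-of-ratios scaling). Snhg11 was counted among these 185 by its annotation class.

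**Figure D4:**
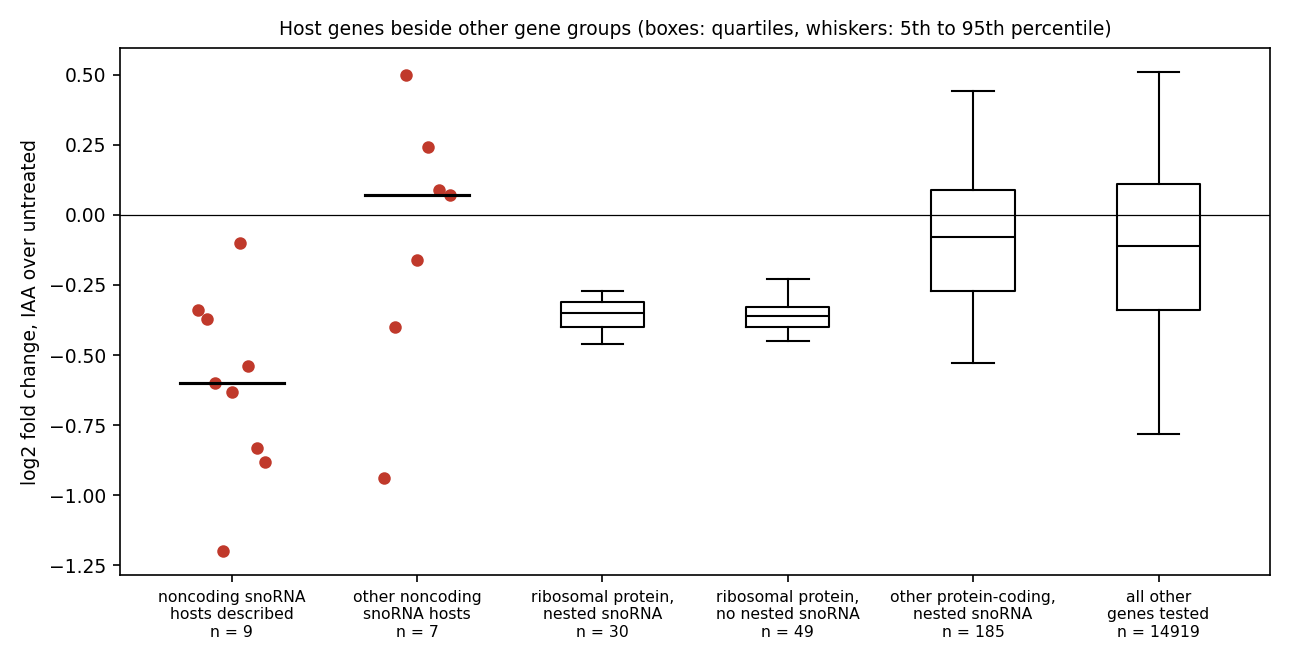
Log2 fold change of IAA over untreated, with points for single genes and their median in both noncoding host groups and boxes for larger groups (quartiles, whiskers from the 5th to the 95th percentile). The described hosts, Snhg18 included, have a median of -0.60, below the ribosomal protein genes with and without a nested snoRNA (-0.35 and -0.36) and all other genes tested (-0.11).

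A list of 23 better known protein-coding hosts outside the ribosome had 16 lower and 4 higher (14 and 7 under median-of-ratios scaling). The shares over all genes tested were 28.9% lower and 11.1% higher (20.5% and 20.4% under median-of-ratios scaling). Eef2, the translocation factor of the ribosome, had 20962 and 20818 in the IAA libraries and 28941 and 29131 in the untreated libraries (-0.48, SE 0.03; limma adjusted p = 7.18e-11). Dkc1 (-0.43), the pseudouridine synthase of H/ACA particles, and Cct6a (-0.36), a chaperonin subunit, fell too. Nop58, a core protein of C/D particles, rose (0.31) and was named after its values were seen.

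Genes of the snoRNA particles were lower more often than higher, as were all genes tested at the deposited scaling (28.9% lower and 11.1% higher). Of 17 core and assembly proteins 9 were lower and 1 was higher (8 and 3 under median-of-ratios scaling). Their median log2 fold change was -0.17, against -0.11 over all genes tested. Under median-of-ratios scaling 20.5% of all genes were lower and 20.4% higher. Pih1d1, a subunit of the R2TP chaperone complex that assembles these particles, had 164 and 168 in the IAA libraries and 302 and 278 in the untreated libraries (-0.80, SE 0.10; limma adjusted p = 3.91e-06). Shq1, the assembly chaperone of dyskerin, fell (-0.57), and so did Rpap3, another R2TP subunit (-0.44). Fbl, the methyltransferase of C/D particles, was also lower (-0.30), and Snu13, which binds first to C/D RNA, had -0.01 and did not pass. Both were named after their values were seen.

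NMD factors, which govern the stability of several host RNAs, went both ways. Of 17, 8 were lower and 4 higher (4 and 4 under median-of-ratios scaling). All genes tested had 28.9% lower and 11.1% higher (20.5% and 20.4% under median-of-ratios scaling). Smg5, which recruits decay enzymes to UPF1, had 2951 and 2837 in the IAA libraries and 2010 and 2105 in the untreated libraries (0.49, SE 0.04; limma adjusted p = 4.64e-08). Dhx34, a helicase of the pathway, fell (-0.54), and so did Upf2 (-0.43), the adaptor between UPF1 and UPF3. Upf1, the central helicase, had a log2 fold change of -0.15 that passed at the deposited scaling (limma adjusted p = 0.0108) and not under median-of-ratios scaling (-0.05), and was named after its values were seen.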

How the data were processed

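Poly(A) RNA of 4 libraries was analysed from 1 table. The values show that the authors' 4 library columns hold scores, namely rounded read counts after division by a size factor for each library. Their deposited mean over libraries is an unrounded signal, and from it the size factors came out as 0.98 and 0.95 (IAA) and 0.88 and 0.87 (untreated), and whole reads were recovered for 100% of rows (tolerance 0.001). The authors' log2 fold change, Wald score, p-values and adjusted p-values are cited as such in the text. The submitters' processing notes name cutadapt 1.18, STAR, Bowtie2, SAMtools, deepTools, featureCounts and DESeq2 and builds mm10 and dm6, without roles, and neither annotation nor strandedness was found in them.

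Rows with a mean of at least 10 (14928, against 15354 below it) were compared by limma 3.58.1 (R 4.3.3) on the log2(value + 1) scale (empirical Bayes trend, Benjamini-Hochberg, adjusted p under 0.05), which understates changes of low genes. Intervals are 95%. The procedure was tested on simulated data. Replicate numbers were not used as pairs. The members and lists were chosen with earlier results of these data known. Named genes were the members, genes sharing exons with them or starting within 1000 bases, their snoRNA rows, Polr2c, and per list the 3 called genes with the largest change; others are marked. Ribosomal protein genes were taken by symbol, and hosts defined by a nested snoRNA from the annotation, both after seeing the data. Coordinates are GENCODE M21 on GRCm38 (mm10), which held 30214 of the 30282 row IDs. Alternatives covered pseudocounts, filters, scalings, voom on recovered reads, thresholds, the replicate block and leaving out each library.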

Additional observations from a re-analysis of the deposited data

How the results depend on the processing

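The calls could not be checked by leaving out a library. With 1 library left out, no call was kept among hosts, other listed genes or the whole table (limma), and the cause was not tested. These fits have a single residual degree of freedom, and the remaining library of that group is taken to be as variable as the others. At an unadjusted p under 0.05, 7 or 8 of the 9 hosts were then lower, against 22.3% to 24.7% of all genes, and fold changes kept their sign, from -0.97 to -0.79 for Zfas1 and -0.36 to -0.31 for Gas5. With no filter on low values, 1 host was lower (8 at an unadjusted p under 0.05, as were 16.9% of all genes), 12 other listed genes were lower and 3 higher, against 34 and 8, and 638 genes were lower and 179 higher, against 4312 and 1650; the cause was not tested. In the authors' deposited test at an adjusted p under 0.05, 5 hosts were lower. There 22 other listed genes were lower and 4 higher, and 1100 genes were lower and 284 higher. Under median-of-ratios scaling 14 other listed genes and 3039 genes were higher, and with library totals 14 and 3083. With library totals Snhg5 changed sign to 0.00 and Snhg18 did not pass. An adjusted p under 0.01 left 1037 genes higher. The replicate number as a block (replicate block) left 8 hosts lower, 33 other listed genes lower and 7 higher, and 4311 genes lower and 1647 higher; deviations of libraries with the same number had a correlation of 0.00153, so the numbers were not taken as pairs. Pseudocounts of 0.5 and 5, unrounded values and voom on recovered reads left all 8 hosts called. Snhg3, Snhg18 and most snoRNA rows had few reads, and the cause was not tested.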

Other observations

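Leaving out the 10 hosts, GENCODE M21 places a snoRNA inside 29 noncoding genes with a row, of which 17 were tested, 5 were lower and none was higher at the deposited scaling (median-of-ratios scaling gave 2 lower and 2 higher). Their median log2 fold change was -0.06, and Epb41l4aos and others described above are among them. Snhg11 is not, since its annotation class put it with the protein-coding genes. The noncoding genes that follow were named after their values were seen. The uncharacterised 2410006H16Rik had 295 and 308 normalised read counts in the IAA libraries and 578 and 586 in the untreated libraries, a log2 fold change of -0.95 with a standard error of 0.08 (adjusted p = 1.32e-08 in limma). This is close to that of Zfas1, and neither changed direction under median-of-ratios scaling (-0.85 and -0.78). Rab26os had 22 and 21 in the IAA libraries and 33 and 43 in the untreated libraries (-0.78; limma adjusted p = 0.0268). Dancr, a noncoding RNA known for restraining differentiation, had 78 and 65 in the IAA libraries and 94 and 106 in the untreated libraries (-0.48; limma adjusted p = 0.0256). Neither Rab26os nor Dancr passed under median-of-ratios scaling.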
